A study of Homo sapiens with 4 samples.

Results

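The extracellular matrix is the protein network that cells secrete and attach to, and the genes described here encode its collagens, glycoproteins and laminins, the enzymes that modify collagen, the integrins that bind matrix at the cell surface, and membrane or secreted regulators of proteolysis. The group was a fixed list of 42 gene symbols, each matched to 1 row of a count table of 60662 genes, and the list was drawn up with earlier results of these data known. The series compared HAP1 cells with and without MATR3, which encodes matrin 3, a nuclear protein that binds RNA and DNA. HAP1 is an adherent human line with a near-haploid genome that was derived from KBM-7, a line of chronic myeloid leukaemia. Its RNA was converted to cDNA, amplified by PCR and sequenced as long reads on a nanopore instrument (MinION). The wild-type (WT) group held 2 libraries of the purchased WT clone 4, and the MATR3 knockout (KO) group held 1 library each of the purchased clones 1 and 5. All cells were grown in the same serum-containing medium, with no further treatment in the labels. Each KO clone is a single clone with 1 library, and the WT libraries are not said to be separate cultures. Any p-value below therefore reflects the spread among these 4 libraries alone, part or all of which may be technical.

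Collagens are secreted as triple helices of 3 chains, which need prolyl and lysyl hydroxylation and the chaperone HSP47 in the endoplasmic reticulum before export. Laminins are trimers of an alpha, a beta and a gamma chain that build basement membranes with type IV collagen, nidogen and perlecan. Integrins pair an alpha with a beta subunit to bind these proteins, and metalloproteases and their TIMP inhibitors control their turnover. HAP1 cells grow attached to plastic, unlike the leukaemic line they came from.

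Library totals ran from 3121759 to 5303199 counts, and the 42 genes summed to between 1947 and 3659 counts a library. The WT libraries carry no number in the table and are called A and B; their column names hold other tags (FACS and test) and an earlier date tag than the KO columns, so the date tag and the genotype cannot be told apart. MATR3 is listed as 2 gene models. The row named MATR3 had 41 and 43 counts in the WT libraries and 27 and 37 in the KO clones, and the second model, ENSG00000015479, had 171 and 304 against 187 and 204. Neither was called (edgeR Benjamini-Hochberg (BH) adjusted p = 0.875 and 0.974), and a count over a whole gene does not detect a small edit, so it does not check the KO labels. CPM stands for a count divided by the scaled library size (TMM scaling), times 1e+06. Of 15 blood cell markers 7 had 0 counts in all libraries, among them PTPRC, CD34 and GATA1. The 5 that were tested (TAL1, GATA2, MYB, HBA1 and RUNX1) were not called. GATA2, MYB and RUNX1 lay above WT in both KO libraries (log2 change 0.84, 1.89 and 1.44). HBA1 lay below WT in both (-0.59), and TAL1 overlapped (0.08). The 15 markers summed to 45.8 and 48.7 CPM in WT and 59.2 and 61.1 CPM in KO. Of 12 fibroblast markers 5 had 0 counts, with sums of 44.03 and 68.06 CPM against 79.51 and 73.74 CPM. Most of this was VIM (means 30.45 and 40.72 CPM) and PDGFRA (21.07 and 31.16 CPM). The 6 epithelial markers summed to 21.1 and 24.2 CPM in WT and 49.7 and 88.5 CPM in KO. KRT8 (means 14.1 and 55.9 CPM) and KRT18 (5.71 and 11.1 CPM) made up most of it. KRT8 was called higher in KO (log2 change 1.97, edgeR BH-adjusted p = 0.0143) and KRT18 was not called. EPCAM was lower in both KO libraries (2.64 and 1.26 CPM), and CLDN4 and KRT19 had 1 count each. The part of these markers in the differences below was not tested. Across 9024 tested genes the KO over WT change rose weakly with transcript length (Spearman's rho 0.173), and the ratio of KO clone 1 to clone 5 did so more (rho 0.277), with a median transcript of 5242 bases for the 42 genes and 3502 for the tested genes; the part of length was not tested.

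Some chains of well known trimers, such as COL1A2 and COL5A1, had 0 counts, although their partners were counted. COL1A2, COL3A1, COL4A1, COL5A1, LAMA1 and TGFBI had 0 counts in all 4 libraries, which allows a level of up to 0.189 CPM at 3 counts over the 4 libraries. COL4A2 had 1 count and COL18A1 had 2. COL1A1, the partner of COL1A2 in type I collagen, had 68 counts over the 4 libraries, and COL5A2, the partner of COL5A1 in type V collagen, had 100. COL4A1 and COL4A2, the main chains of type IV collagen, thus had 0 and 1 counts over the 4 libraries, while the minor type IV chain genes COL4A5 and COL4A6 had 37 and 83, and 27 and 61, counts in the WT libraries. COL6A1 and COL6A2 were counted, whereas their partner COL6A3 had 0 counts. Floors and counting intervals here cover counting error only, because PCR copies are not independent molecules. None of the 42 genes had a near-identical copy on the 261 alternate contigs of hg38, and 3 of them, COL18A1, LAMA1 and HSPG2, shared more than 10% of their exonic bases with another gene, all of it on the opposite strand. The sources used here do not say whether counting used strand.

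COL4A1 and COL4A2 lie head to head on chromosome 13, and the 250 bases upstream of the 2 RefSeq starts share 126 bases. The upstream window of COL4A1 (hg38, chr13:110307158-110307407, minus strand) is shown because both genes that start there had 0 or 1 counts over all libraries. It held 38 CpG dinucleotides, against a median of 11 over 27305 RefSeq promoter windows of the same length. Capitals mark the GC box GGGCGG on either strand.

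COL4A1: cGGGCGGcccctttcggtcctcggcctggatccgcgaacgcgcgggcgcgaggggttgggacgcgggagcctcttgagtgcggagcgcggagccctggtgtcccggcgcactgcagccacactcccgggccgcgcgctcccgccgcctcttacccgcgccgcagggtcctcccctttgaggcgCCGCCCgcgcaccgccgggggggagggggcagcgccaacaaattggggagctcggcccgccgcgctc

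The same GC box was present in 42.3% of all windows and in 25 of the 32 windows matched to these genes. COL5A1 and TGFBI, which had 0 counts as well, held 29 and 20 CpG in their windows. No window was matched to COL1A2, COL3A1 or LAMA1. The median was 24.5 CpG over the 32 windows and 19.5 over the 20 windows of tested genes, which held up to 32.

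Of the 42 genes 36 had a count and 25 passed the count filter. The filter asks for a level that corresponds to 10 counts in at least 2 libraries, and 20 genes met it in both groups, while COL5A2, SPARCL1, LOX and ITGA6 met it in KO alone and AMBN in WT alone. A gene can enter because it is high in 1 group, so counts over the 25 are a description. At a BH-adjusted edgeR p under 0.05, SPARCL1 and MME rose in KO and AMBN and LAMB1 fell. These are 4 of 25, where 2.19% of all 10505 tested genes were called, 1.58% higher and 0.609% lower. At an unadjusted p under 0.05 there were 5 genes with a higher and 3 with a lower level, against 16.4% of all tested genes in either direction. Both KO libraries lay above both WT libraries for 5 of the 25 and below for 4, beside 25.0% and 22.8% of all tested genes. The median log2 change of the 25 was -0.07, beside 0.00 for all tested genes.

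**Figure D1:**
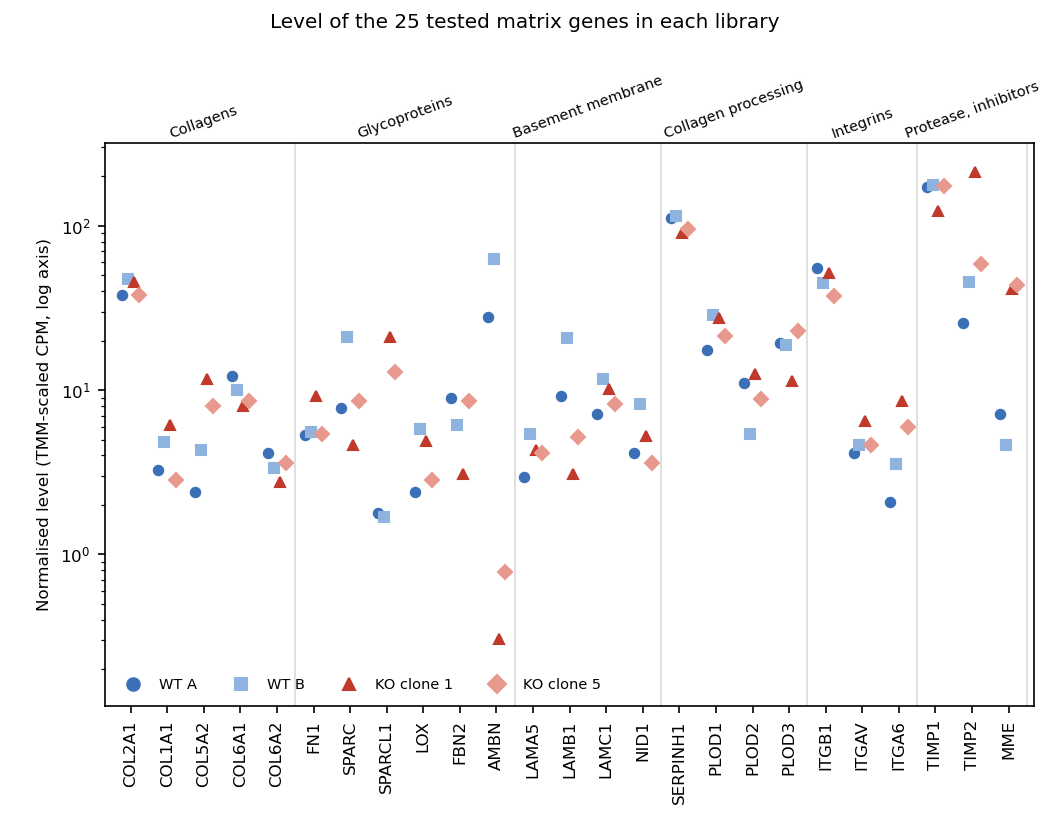
Normalised level (TMM-scaled CPM, log axis) of the 25 tested genes in each of the 4 libraries, ordered by role. MME and SPARCL1 are far higher in both KO clones, AMBN is near 1 CPM or under in both, and TIMP2 stands apart in KO clone 1 at 212 CPM.

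**Figure D2:**
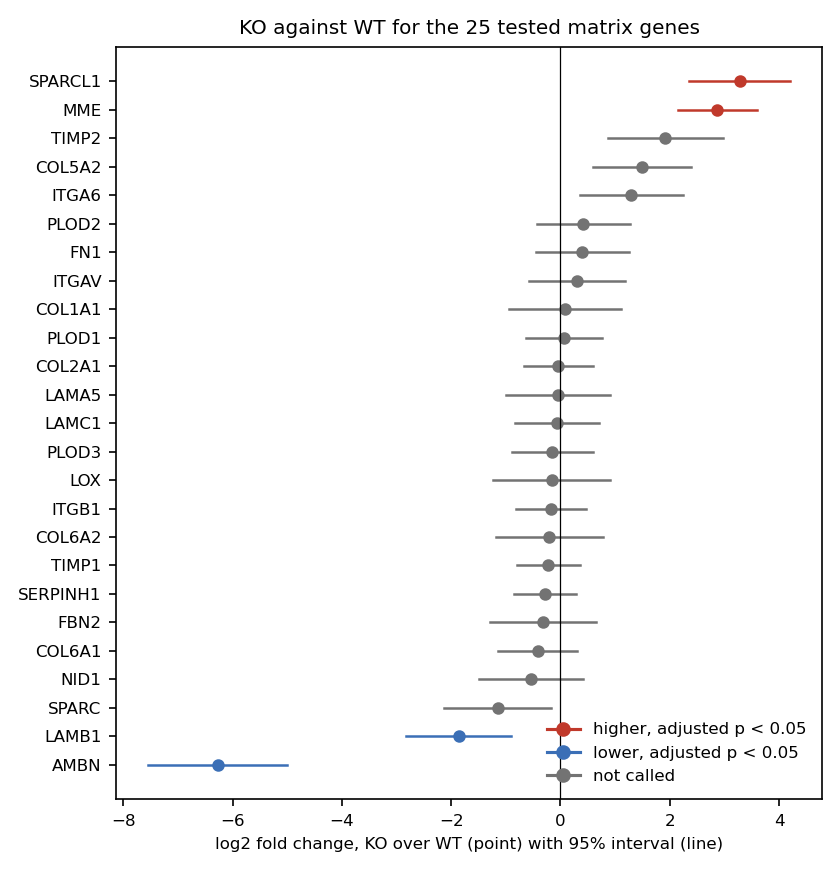
Log2 fold change of KO over WT for the 25 tested genes, with the 95% interval of the quasi-likelihood fit as a line. SPARCL1 and MME are called higher and LAMB1 and AMBN lower, and the intervals of 17 genes include 0.

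Among the collagens that were tested, none was called. COL2A1, the chain of the cartilage collagen type II, had 127 and 255 counts in the WT libraries and 148 and 147 in the KO clones. The level was 42.7 ± 6.90 CPM in WT and 41.7 ± 5.23 CPM in KO (SD, n = 2 each), with overlapping groups and a log2 change of -0.04 (SE 0.29, 95% interval -0.67 to 0.59). COL5A2 had 8 and 23 counts in the WT libraries and 38 and 31 in the KO clones. Both KO libraries lay above both WT libraries, with 3.33 ± 1.35 against 9.84 ± 2.58 CPM (mean ± SD, n = 2 each) and a log2 change of 1.49 (SE 0.42), which did not pass over all genes (edgeR BH-adjusted p = 0.0888; 0.0370 with no count filter, 0.0234 without KO clone 5 and 0.340 at the highest with another library left out). COL6A1 had 41 and 54 counts in the WT libraries and 26 and 33 in the KO clones, and COL6A2 had 14 and 18 against 9 and 14. In COL6A1 both KO levels lay just under both WT levels, with a log2 change of -0.42 (95% interval -1.14 to 0.30), and in COL6A2 the groups overlapped, at -0.20 (95% interval -1.19 to 0.78). COL1A1 had 11 and 26 counts in the WT libraries and 20 and 11 in the KO clones, at 0.09 (95% interval -0.93 to 1.11). At these counts the intervals include a 2-fold fall in COL6A1 and COL6A2 and a 2-fold rise in COL1A1.

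Of the chaperone and hydroxylases that prepare collagen, none that was tested was called. SERPINH1, which encodes the collagen chaperone HSP47, had 375 and 617 counts in the WT libraries and 295 and 372 in the KO clones, which is 113 ± 2.46 against 93.4 ± 4.02 CPM (mean ± SD, n = 2 each). The KO libraries lay below both WT libraries, but the log2 change of -0.28 (95% interval -0.85 to 0.29) was not called (edgeR BH-adjusted p = 0.639). The lysyl hydroxylase genes PLOD1, PLOD2 and PLOD3 had log2 changes (KO over WT) of 0.06 (95% interval -0.63 to 0.76), 0.42 (-0.43 to 1.27) and -0.15 (-0.89 to 0.59). PLOD3 had 65 and 101 counts in the WT libraries, 37 in KO clone 1 and 88 in KO clone 5, so the clones lay on either side of the WT libraries. P4HA2, an alpha subunit of prolyl 4-hydroxylase, had 19 and 7 counts in the WT libraries and 2 and 4 in the KO clones, which was under the filter. LOX, the lysyl oxidase that crosslinks collagen and elastin, had 8 and 31 counts in the WT libraries and 16 and 11 in the KO clones, with a log2 change of -0.16 (95% interval -1.24 to 0.91), and its relative LOXL2 had 4 and 8 against 7 and 15.

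SPARCL1, a matricellular glycoprotein also known as hevin, rose in KO, while its relative SPARC did not pass the test. SPARCL1 (chromosome 4, 87473335 to 87531061, minus strand) had 6 and 9 counts in the WT libraries and 69 and 50 in the KO clones. Its level went from 1.73 ± 0.0756 to 17.1 ± 5.83 CPM (mean ± SD, n = 2 each), a 9.69-fold rise with a log2 change of 3.28 (SE 0.43, edgeR BH-adjusted p = 0.00174). The rise was called in all 10 other fits that tested SPARCL1, with log2 fold changes from 2.89 to 3.59. SPARC, a calcium-binding matrix protein that binds collagen, had 26 and 113 counts in the WT libraries and 15 and 33 in the KO clones. The WT libraries differed 2.72-fold between themselves and overlapped with KO, so the log2 change of -1.15 (SE 0.46, edgeR BH-adjusted p = 0.228) depended on which WT library was kept: it was -0.24 without WT B (adjusted p = 0.900) and -1.66 without WT A, where SPARC was called lower (adjusted p = 0.0176).

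AMBN, which encodes the enamel matrix protein ameloblastin, was nearly lost in both KO clones. AMBN (chromosome 4, 70592256 to 70607288, plus strand) had 94 and 335 counts in the WT libraries and 1 and 3 in the KO clones. Both KO libraries were far below the WT libraries, at 0.542 ± 0.332 against 45.2 ± 24.4 CPM (mean ± SD, n = 2 each). The fitted log2 fold change was -6.27 (SE 0.59, edgeR BH-adjusted p = 9.4e-05), and the WT over KO ratio of the summed counts, each divided by the summed scaled library sizes, was 87.6 with a 95% exact counting interval of 34.0 to 323. In a bulk culture, fewer cells that express the gene and less RNA per cell cannot be told apart. AMBN and SPARCL1 belong to the family of secretory calcium-binding phosphoproteins and their SPARC-like relatives, many of which cluster on chromosome 4. Of 14 further genes of this family and of the SPARC group, 10 had 0 counts in every library, among them ENAM and AMTN beside AMBN, and DSPP and DMP1 beside SPARCL1. FSTL1, a SPARC-related glycoprotein, was the only one of the 14 that was tested, with 21 and 38 counts in the WT libraries and 23 and 24 in the KO clones (edgeR BH-adjusted p = 0.989). SPOCK2, a SPARC-related proteoglycan, had 0 and 2 counts in the WT libraries and 7 and 7 in the KO clones, SMOC2 had 3 and 3 against 0 and 1, and SPOCK1 had 3 counts over the 4 libraries.

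The windows of 250 bases upstream of the RefSeq starts are shown for the 4 genes called, because they stand in contrasting sequence. SPARCL1 (hg38, chr4:87529377-87529626, minus strand) and AMBN (chr4:70592006-70592255, plus strand) are poor in CpG, with 1 and 4. MME (chr3:155079422-155079671, plus strand) has 15 and LAMB1 (chr7:108003162-108003411, minus strand) has 28. The GENCODE spans given for MME and SPARCL1 begin further upstream than these RefSeq starts, so both windows lie inside the GENCODE gene, and that of LAMB1 overlaps it in part. Capitals mark TATAAA or GGGCGG on either strand.

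SPARCL1: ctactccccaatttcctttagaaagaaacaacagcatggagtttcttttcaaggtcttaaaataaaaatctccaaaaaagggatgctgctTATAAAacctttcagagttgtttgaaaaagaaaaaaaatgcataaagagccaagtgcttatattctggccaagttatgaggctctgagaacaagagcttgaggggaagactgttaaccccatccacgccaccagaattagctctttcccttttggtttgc
AMBN: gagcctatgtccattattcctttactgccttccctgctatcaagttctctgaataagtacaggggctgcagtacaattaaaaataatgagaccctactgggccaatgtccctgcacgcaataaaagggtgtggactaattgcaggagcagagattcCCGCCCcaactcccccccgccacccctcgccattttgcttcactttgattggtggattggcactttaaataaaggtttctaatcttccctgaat
MME: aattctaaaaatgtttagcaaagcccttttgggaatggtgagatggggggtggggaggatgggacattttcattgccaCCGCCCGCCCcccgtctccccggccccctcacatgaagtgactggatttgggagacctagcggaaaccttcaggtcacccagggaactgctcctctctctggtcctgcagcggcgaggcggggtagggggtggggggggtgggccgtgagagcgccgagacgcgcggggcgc
LAMB1: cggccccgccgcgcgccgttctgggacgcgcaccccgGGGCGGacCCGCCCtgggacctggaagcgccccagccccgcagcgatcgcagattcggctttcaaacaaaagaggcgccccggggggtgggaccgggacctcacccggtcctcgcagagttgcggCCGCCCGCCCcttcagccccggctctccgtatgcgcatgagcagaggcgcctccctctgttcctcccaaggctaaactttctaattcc

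SPARCL1 was the only one of these 4 with TATAAA, which was present in 11.1% of all windows and in 3 of the 32 windows matched here. AMBN, MME and LAMB1 held at least 1 GC box. CACCTG, present in 17.5% of all windows and 2 of the 32, was in none of these 4, and GGAATG, in 11.9% and 6 of the 32, was in MME alone (either strand). The genes that rose, SPARCL1 and MME, shared none of the 4 motifs searched, and a match or its absence describes these letters alone.

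In the laminins, which anchor cells to the basement membrane, the beta 1 chain fell, and the alpha 5 and gamma 1 chains were not called. LAMB1 (chromosome 7, 107923799 to 108003213, minus strand) had 31 and 111 counts in the WT libraries and 10 and 20 in the KO clones. Both KO libraries lay below both WT libraries, with 15.0 ± 8.11 against 4.12 ± 1.49 CPM (mean ± SD, n = 2 each), a 3.64-fold fall and a log2 change of -1.87 (SE 0.44, edgeR BH-adjusted p = 0.0441). The call was close to the threshold and ended with DESeq2 (adjusted p = 0.118), limma-voom (0.0977) and no scaling (0.156), and without WT B (log2 fold change -1.16, edgeR BH-adjusted p = 0.326) or KO clone 1 (-1.56, 0.142). LAMC1 had 24 and 63 counts in the WT libraries and 33 and 32 in the KO clones, a log2 change of -0.07 (95% interval -0.84 to 0.70), and LAMA5 had 10 and 29 against 14 and 16, at -0.04 (95% interval -0.99 to 0.91). The groups overlapped in both genes. NID1, the nidogen that links laminin to type IV collagen, had 14 and 44 counts in the WT libraries and 17 and 14 in the KO clones, at -0.54 (95% interval -1.49 to 0.41).

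LAMA4, a laminin alpha chain outside the 42 genes, rose. It had 34 and 62 counts in the WT libraries and 96 and 125 in the KO clones, which is 10.8 ± 1.02 against 30.9 ± 2.03 CPM (mean ± SD, n = 2 each), with a log2 change of 1.50 (SE 0.30, edgeR BH-adjusted p = 0.0207; 0.0686 with no scaling, 0.129 without WT A, 0.0865 without WT B). LAMA4 lies on chromosome 6, where the 41 other tested genes within 5 Mb had a median log2 change of 0.97, with 10 called higher and 0 lower. The part of this neighbourhood in the rise of LAMA4 was not tested. Around the called members the median within 5 Mb was -0.09 over 24 genes around MME, -0.03 over 34 around SPARCL1, 0.27 over 13 around AMBN and -0.13 over 25 around LAMB1, with 0 genes called near the first 3 (edgeR BH-adjusted p under 0.05) and 1 higher and 1 lower near LAMB1. The share of these neighbours with a log2 change above 0 was 97.6% around LAMA4, 84.6% around AMBN, 47.1% around SPARCL1, 45.8% around MME and 32.0% around LAMB1.

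**Figure D3:**
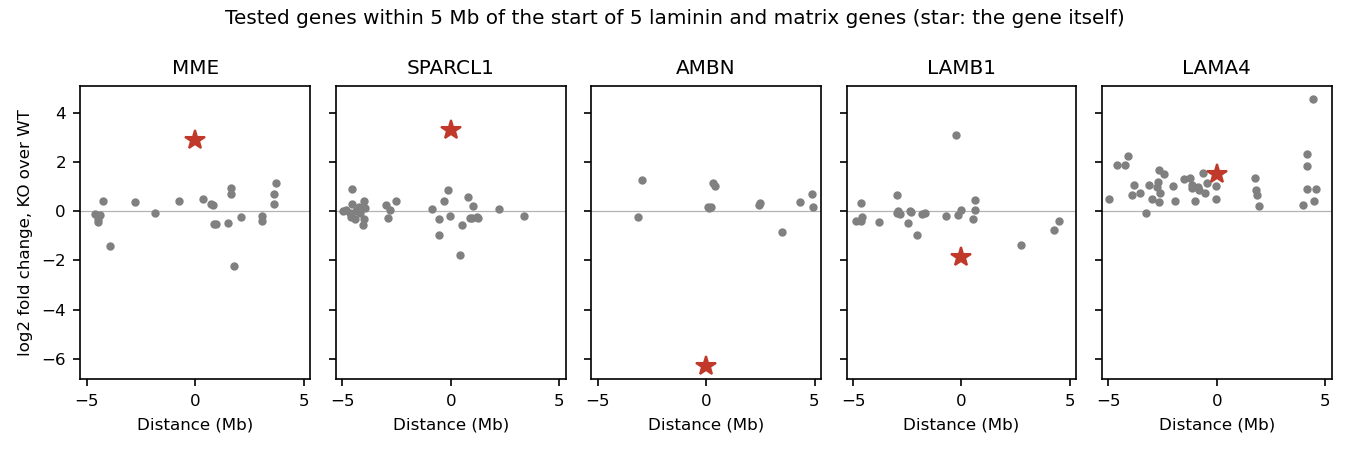
Log2 fold change of KO over WT for each tested gene within 5 Mb of the start coordinate of MME, SPARCL1, AMBN, LAMB1 and LAMA4, plotted by distance from that start, with the gene itself as a star. MME, SPARCL1 and AMBN stand apart from their neighbours, and LAMA4 lies among neighbours with a median of 0.97.

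Other matrix glycoproteins and proteoglycans had low counts. FN1, fibronectin, had 18 and 30 counts in the WT libraries and 30 and 21 in the KO clones. Its groups overlapped, with a log2 change of 0.40 (95% interval -0.45 to 1.25). FBN2, a microfibril protein of the fibrillin family, had 30 and 33 counts in the WT libraries, 10 in KO clone 1 and 33 in KO clone 5, at -0.32 (95% interval -1.29 to 0.65), and FBN1 had 5 and 9 against 7 and 12. THBS1, the adhesive glycoprotein thrombospondin, had 4 and 4 counts in the WT libraries and none in the clones. Its summed WT level was 2.18-fold above a floor of 3 counts for the KO group, with no test because it was under the filter. AGRN, the heparan sulfate proteoglycan agrin, had 1 and 9 counts in the WT libraries and none in the clones, and 9 of its 10 counts came from WT B. Its ratio to the same floor was 2.72, but WT A alone (0.2975 CPM) lay under that floor (0.421 CPM). These ratios leave out counting error in WT, so they are not lower bounds. HSPG2, perlecan, had 3 and 17 counts in the WT libraries and 8 and 4 in the KO clones.

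No integrin among the 42 genes was called, although ITGA6 lay higher in both clones. ITGB1, the beta subunit shared by most matrix-binding integrins, had 185 and 239 counts in the WT libraries and 167 and 145 in the KO clones. Its level was 49.8 ± 7.41 against 44.4 ± 9.72 CPM (mean ± SD, n = 2 each), with overlapping groups and a log2 change of -0.16 (95% interval -0.81 to 0.48). ITGA6, the alpha subunit that binds laminin, had 7 and 19 counts in the WT libraries and 28 and 23 in the KO clones. Both KO libraries lay above both WT libraries, at 7.27 ± 1.87 against 2.81 ± 1.03 CPM (mean ± SD, n = 2 each), but the log2 change of 1.30 (SE 0.44) did not pass over all genes (edgeR BH-adjusted p = 0.153). ITGAV, which pairs with several beta subunits to bind vitronectin and fibronectin, had 14 and 25 counts in the WT libraries and 21 and 18 in the KO clones, at 0.31 (95% interval -0.57 to 1.19), and ITGA5, the fibronectin receptor subunit, had 5 and 12 against 7 and 11. ITGB5, a beta subunit that pairs with the product of ITGAV, is not among the 42 genes and rose. It had 21 and 54 counts in the WT libraries and 85 and 80 in the KO clones, a log2 change of 1.48 (SE 0.34, edgeR BH-adjusted p = 0.0360). That call ended with DESeq2 (adjusted p = 0.0832), no scaling (0.125) and a mean count of at least 50 (0.0554), and without WT A (log2 fold change 1.22, edgeR BH-adjusted p = 0.263) or KO clone 1 (1.31, 0.0627).

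MME, the membrane endopeptidase neprilysin, which cleaves peptides at the cell surface, rose about 7-fold in both KO clones. MME (chromosome 3, 155024124 to 155183704, plus strand) had 24 and 25 counts in the WT libraries and 134 and 168 in the KO clones. The KO clones were alike and far above WT, at 42.3 ± 1.65 against 5.90 ± 1.75 CPM (mean ± SD, n = 2 each), a 7.31-fold rise with a log2 change of 2.87 (SE 0.34, edgeR BH-adjusted p = 0.000643). In the authors' deposited table MME had a log2 change of 2.86 (adjusted p = 1.74e-06) and AMBN of -6.34 (adjusted p = 7.99e-10). That comparison holds 10 of the 42 genes, and SPARCL1 and LAMB1 are not among them. MMP14, a membrane-bound collagenase, had 3 and 8 counts in the WT libraries and 0 and 6 in the KO clones, under the filter.

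TIMP2, like the other TIMP genes the source of a metalloprotease inhibitor, differed between the KO clones and was not called. TIMP2 had 86 and 243 counts in the WT libraries, 692 in KO clone 1 and 227 in KO clone 5. The level was 25.6 and 45.3 CPM in WT, 212 CPM in clone 1 and 58.7 CPM in clone 5, so both clones lay above WT but clone 1 was 3.62-fold above clone 5. The log2 change of 1.92 (SE 0.49) did not pass (edgeR BH-adjusted p = 0.0656). The adjusted p was 1.14e-06 in edgeR with no count filter and 0.451 with DESeq2. In the authors' deposited table TIMP2 had a log2 change of 1.93 (adjusted p = 0.346). The edgeR log2 change was 0.71 without KO clone 1, 2.56 without KO clone 5 and 2.37 without WT B. TIMP1 had 576 and 948 counts in the WT libraries and 402 and 672 in the KO clones, which is 174 ± 3.82 against 149 ± 35.7 CPM (mean ± SD, n = 2 each). Its groups overlapped, with a log2 change of -0.23 (95% interval -0.80 to 0.35). TIMP3 had 13 and 10 counts in the WT libraries and 8 and 2 in the KO clones.

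Each clone has 1 library, so differences between the clones have no test. The called genes differ from WT in both clones by the way they were called, and the ratios of both clones share 1 WT mean, so their values are a description. Set against the same WT mean with 0.5 CPM added, MME was 2.70 higher in KO clone 1 and 2.78 higher in clone 5 on the log2 scale, and SPARCL1 was 3.28 and 2.59 higher. AMBN was at -5.82 and -5.16, and LAMB1 at -2.11 and -1.45. With the same 0.5 CPM added, 2 of the 25 genes, TIMP2 and FBN2, differed at least 2-fold between the clones, beside 8.25% of all tested genes, and 4 did so between the WT libraries, beside 5.01%. SPARC, AMBN, LAMB1 and LOX were these 4, each higher in WT B. Without the added 0.5 CPM, COL1A1, PLOD3 and AMBN also differed at least 2-fold between the clones, and PLOD2 between the WT libraries, higher in WT A.

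**Figure D4:**
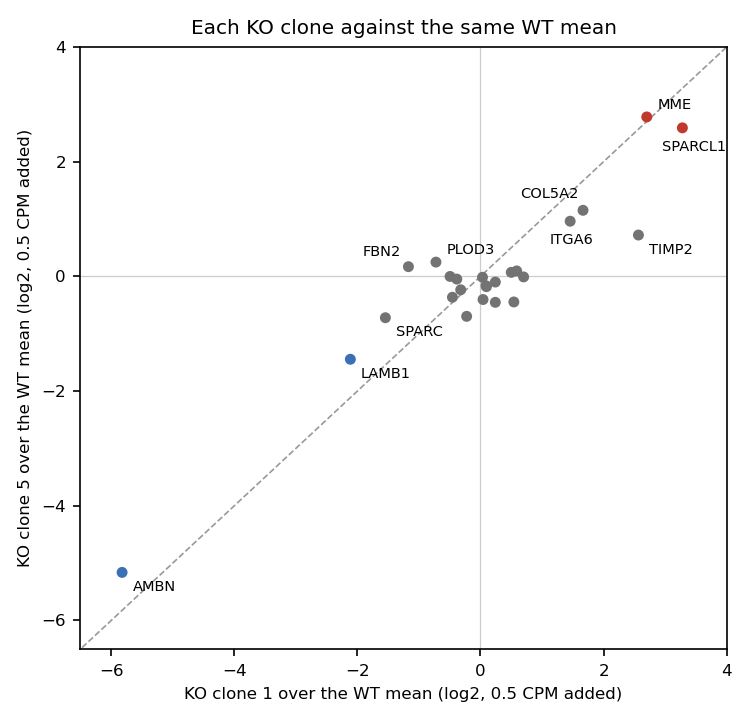
Log2 ratio of each tested gene in KO clone 1 (x axis) and KO clone 5 (y axis) to the same WT mean, with 0.5 CPM added, where the dashed line marks equal ratios and the shared WT mean ties both axes. MME lies near the line at 2.70 and 2.78, and TIMP2 lies off it at 2.57 and 0.72.

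Other genes of the matrix and adhesion pathways, 223 in the table, held few calls. Of 89 tested, 3 rose and 0 fell in the edgeR fit (1.58% and 0.609% of all tested genes). At an unadjusted p under 0.05, 8 were higher and 6 lower, against 16.4% of all tested genes in either direction. DESeq2 called 2 higher and 0 lower and limma-voom 3 higher and 0 lower. Besides LAMA4 and ITGB5 the third was SEC23A, a coat protein of the vesicles that carry collagen out of the endoplasmic reticulum. SEC23A had 658 and 1519 counts in the WT libraries and 4380 and 2510 in the KO clones, which is 239 ± 61.9 against 997 ± 492 CPM (mean ± SD, n = 2 each), with a log2 change of 2.06 (SE 0.33, edgeR BH-adjusted p = 0.00848; 0.0621 with no scaling). MIA3, a receptor that loads collagen into these vesicles, had 88 and 132 counts in the WT libraries and 47 and 39 in the KO clones, a log2 change of -1.05 that did not pass (edgeR BH-adjusted p = 0.105). Of the 17 tested genes for collagen processing, 16 were not called, with P4HB, the beta subunit of prolyl 4-hydroxylase, at -0.82 (SE 0.37) and P4HA1, an alpha subunit, at 0.73 (SE 0.38).

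Among 4 other collagens tested, 0 were called by edgeR, DESeq2 or limma-voom and 1 had an unadjusted p under 0.05 (16.4% of all tested genes). COL4A6 had a log2 change of -0.93 (SE 0.40), COL4A5 of -0.64 (SE 0.34) and COL4A4 of -0.24 (SE 0.44), all type IV chains, and COL27A1 had 34 and 85 counts in the WT libraries and 58 and 34 in the KO clones. COL11A1, a fibrillar collagen under the filter, had 4 and 18 counts in the WT libraries and none in the clones, and MFAP2, a microfibril protein, had 5 and 21 against 0 in both. In the list of other laminins and elastic matrix genes, 8 of 9 tested were not called, with LAMB2 at 0.93 (SE 0.50), LAMC3 at -1.10 (SE 0.66) and NID2 at 0.75 (SE 0.51). Of 10 other integrins and receptors tested, 9 were not called. ITGA4, a subunit that binds fibronectin and VCAM1, had 35 and 43 counts in the WT libraries and 19 and 13 in the KO clones, while BCAM, a laminin receptor, had a log2 change of -1.16 (SE 0.57) and DAG1, dystroglycan, of 0.64 (SE 0.30).

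Proteoglycans, focal adhesion proteins and proteases held no call by edgeR, DESeq2 or limma-voom with all 4 libraries. The unadjusted counts that follow stand beside 16.4% of all tested genes in either direction. Of 7 proteoglycans 1 had an unadjusted p under 0.05, GPC4, a glypican, with a log2 change of 0.71 (SE 0.33; 0.16 without KO clone 5, and 1.09 without KO clone 1, where it was called at adjusted p = 0.0261), and the syndecans SDC1, SDC2 and SDC3 had 0.49 (SE 0.32), -0.39 (SE 0.29) and -0.70 (SE 0.66). Of 14 focal adhesion genes 0 had an unadjusted p under 0.05, with TNS3, a tensin, at -0.71 (SE 0.33), FERMT1, a kindlin, at -0.62 (SE 0.31), TLN1, talin, at -0.51 (SE 0.29) and BCAR1, an adaptor, at 0.52 (SE 0.48). Of 13 proteases and inhibitors 2 had an unadjusted p under 0.05, the cathepsin gene CTSL at 0.69 (SE 0.27) and BSG at -0.55 (SE 0.25). BSG encodes basigin, which induces metalloproteases, and its log2 change ran from -0.89 to -0.27 with single libraries left out. ADAM10 and ADAM15 had 0.63 (SE 0.31) and 0.57 (SE 0.34). The groups overlapped in ADAM15, and its log2 change ran from 0.028 to 0.97 with single libraries left out.

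Of 14 tested genes of TGF-beta and YAP signalling, which control many matrix genes, 11 had a log2 change above 0 and 3 below. Of all 10505 tested genes, 5279 were above 0. Among the 14, 0 were called by edgeR, DESeq2 or limma-voom. At an unadjusted p under 0.05, 3 were higher and 1 lower, against 16.4% of all tested genes in either direction. Both KO libraries lay above both WT libraries in 9 (25.0% of all tested genes) and below them in 1 (22.8%), and 4 overlapped. The median log2 fold change of the 14 was 0.42, beside 0.00 for all tested genes. CYR61 (-0.09) and TGFB1 (-0.11), both with overlapping groups, and ANKRD1 were the 3 below 0. SMAD7, an inhibitor of TGF-beta signalling, had 20 and 30 counts in the WT libraries and 50 and 56 in the KO clones. Its log2 change of 1.37 (SE 0.34) was not called (edgeR BH-adjusted p = 0.0503). The edgeR adjusted p was 0.0464 with RLE scaling and 0.0239 with no count filter, and DESeq2 and limma-voom did not call SMAD7. With single libraries left out its log2 change ran from 1.295 to 1.414. TEAD1, the DNA-binding partner of YAP, had a log2 change of 0.85 (SE 0.31), from 0.55 to 1.11 with single libraries left out. WWTR1, which encodes the YAP relative TAZ, had 0.75 (SE 0.33) and ANKRD1, a YAP target, -1.56 (SE 0.53).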

How the data were processed

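Long-read cDNA libraries were prepared from total RNA with an Oxford Nanopore kit that includes PCR, per the labels' protocols. As deposited, the count table lists whole, unscaled counts for 60662 genes. Tools listed in the submitters' processing notes are minimap2, SAMtools, Subread, DESeq and DESeq2 1.22.2, with the build hg38 and no settings. A further deposited table holds the authors' normalised signal, in which counts are divided by a library's size factor; no test used it. The authors' deposited comparison table has mean signals, log2 fold changes, Wald scores and p-values, per the file headers, and is quoted only where named. In it the Wald score has the opposite sign to the fold change in nearly every row, so only fold changes and adjusted p-values are quoted, whose direction was that of KO over WT here.

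KO columns are named by clone as in the labels, and the WT columns, which have no number, are called A and B. The table's unused value columns numbered 0. edgeR 4.0.16 in R 4.3.3 was fitted to all genes: filterByExpr kept 10505 (minimum count 10, minimum total 15), library sizes were TMM-scaled, and a robust quasi-likelihood F test (two-sided) was BH-adjusted over these genes at a threshold of 0.05. The biological coefficient of variation was 0.21. Each SE was computed as the fitted log2 change divided by the root of its F value. Counts were simulated for 10505 genes with the spread fitted to these 4 libraries, and a random part of the genes was changed. Of these changes 89.9% of 4-fold and 25.5% of 2-fold ones were recovered, so 2-fold changes were often not detectable under that fitted spread. For a group without counts, 3 counts over that group served as the floor; per library 3 counts are 0.559 to 0.921 CPM.

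Positions and exon overlaps came from GENCODE 44 (hg38). Transcripts were compared with alternate contigs in minimap2 2.31, where 80% of the length at 98% identity made a copy; 6 of 223 other listed genes had one. Promoter windows came from RefSeq (GRCh38.p14) for 32 of the 42 genes, and all 32 equalled hg38. Alternatives were other scalings and count filters, DESeq2 1.42.0, limma-voom (limma 3.58.1), a minimum absolute log2 change of 1, and leaving out each library. The genes and lists were chosen with earlier results of these data known. Genes named outside the 42 are those called and the up to 4 with the lowest p in each list. COL6A3, COL11A1, MFAP2, CYR61, TGFB1, the cell type markers and the family members with few counts were named after their values were seen.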

Additional observations from a re-analysis of the deposited data

How the results depend on the processing

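The rises of MME and SPARCL1 and the fall of AMBN were called in every fit that tested them, and the fall of LAMB1 ended in 5. With no count filter 4 of the 42 genes were called higher, 2 of the other matrix genes lower, and 385 and 183 of all genes higher and lower. At a mean count of at least 50 these counts were 1 higher and 1 lower of the 42, and 71 and 12 of all genes; fewer genes were tested there. With no scaling 1 of the 42 was lower, 0 of the other matrix genes were higher, and 20 and 11 of all genes were called. DESeq2 and limma-voom called 1 of the 42 lower each, and 32 and 41 of all genes lower. With single libraries left out, 2 to 4 of the 42 were higher and 1 to 3 lower, 1 to 6 of the other matrix genes higher and 0 to 2 lower, and 91 to 674 of all genes higher (91 without WT A, 674 without KO clone 5) and 42 to 361 lower (42 without WT B, 361 without KO clone 5). The causes were not tested. No paired analysis was possible because the WT columns carry no replicate number and the KO numbers name clones. The median of all genes moved by less than 0.1 between scalings. Of 51 genes that were not called, 29 values in alternative fits had the other sign. With limma-voom COL1A1 had a log2 fold change of -0.013. COL27A1 had -0.015 with RLE, -0.044 with upper-quartile scaling, -0.018 with no count filter and -0.052 with limma-voom, and FSTL1 had 0.00040 with no scaling. Over single libraries left out, the log2 fold change of 12 of the 42 genes ran across 0: COL1A1 -0.54 to 0.56, COL2A1 -0.18 to 0.12, FN1 -0.012 to 0.74, LOX -0.59 to 0.65, LAMA5 -0.35 to 0.47, LAMC1 -0.35 to 0.34, NID1 -0.90 to 0.049, FBN2 -1.27 to 0.20, PLOD1 -0.22 to 0.45, PLOD2 -0.074 to 0.98, PLOD3 -0.75 to 0.26, ITGB1 -0.40 to 0.042. Other genes that did so were COL4A4 -0.46 to 0.060, COL27A1 -0.58 to 0.42, SDC3 -2.48 to 0.15, FSTL1 -0.11 to 0.070. In counts simulated for 10505 genes at these depths, a random part of the genes was changed, and 25.5% of 2-fold changes were recovered.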
